A study of Mus musculus with 10 samples.

Results

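Collecting vessel lymphatic endothelial cells (LECs) were examined in 2 droplet (10x) single-cell RNA-Seq libraries of mouse ear skin. They were defined by a score and numbered 219 of 1460 LECs, among 9016 barcodes in the deposited matrices, with 182 in the IgG library and 37 in the Ang2 Ab library. Both libraries came from wild-type C57Bl/6j pups given 20 mg/kg of either an antibody that blocks angiopoietin 2 (Ang2 Ab) or mouse IgG1 every 3 days from P16 to P21, and the cells were sorted on CD31. Each antibody was represented by 1 library and the number of pups pooled was not given in the sources used here, so the libraries could be compared but the treatments could not be tested. The score was also computed in other samples of the same study, 8 Smart-seq plates of ear skin LECs sorted on Podoplanin and CD31. The genes of the score are among those that the study named for its clusters of the LECs of these plates, so the plates held other cells but were not independent of the choice of genes. These were 2 plates each from *Tie1* fl/fl and *Tie1* fl/fl, *Tie2* fl/fl pups without Cre, called here Tie1 fl/fl and Tie1 Tie2 fl/fl, and 2 each from pups of the same alleles with Prox1CreERT2, a tamoxifen-inducible Cre driven by the LEC gene *Prox1*, called Tie1 iDLEC and Tie1 Tie2 iDLEC. All pups of the plates, controls included, were given 4-hydroxytamoxifen from P1 to P5, and 1 plate each of Tie1 fl/fl and Tie1 iDLEC was labelled female and the rest male. The paper gives an age for the plate pups that is later than the last antibody day of the droplet pups, so plates and droplet libraries may also differ in age.

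Lymphatic capillaries take up fluid, cells and macromolecules from tissue, and collecting vessels carry this lymph onward. Collecting vessels have continuous junctions and a basement membrane, are surrounded by smooth muscle cells that contract, and contain valves. The hyaluronan receptor gene *Lyve1* is high in LECs of capillaries and low in those of mature collecting vessels. Ang2 is a secreted ligand of the receptor Tie2, which is encoded by *Tek*, and Tie1 is a related receptor that forms complexes with Tie2.

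To find these cells, UMIs were counted, the unique molecular identifiers that each stand for 1 captured transcript. A barcode was kept if it had 500 or more detected genes and mitochondrial transcripts took no more than 10% of its UMIs. A LEC had at least 2 UMIs of *Prox1*, at most 1 of the blood vessel receptor gene *Flt1* and fewer than 5 over the valve genes *Cldn11*, *Gdf10*, *Sbspon* and *Fibin*. The score was the mean log2(UMIs per 10000 + 1) of the collecting vessel genes *Bgn*, *Ccdc3*, *Mmrn2*, *Plvap*, *Procr*, *Tgm2* and *Tsc22d1* minus that of the capillary genes *Reln*, *Piezo2*, *Slco2b1*, *Pcsk6* and *Dlg1*. The 15% of gated LECs with the highest scores over both libraries were taken as members, and the other 1241 are called the other LECs. Of the 5 marker genes of this vessel type, *Tgm2*, *Procr* and *Bgn* were part of the score, while *Slco2a1* and *Bmp4* were not, and both of the latter were higher in members than in the other LECs of each library. The label of collecting vessel LECs was therefore kept, although in the Ang2 Ab library *Bmp4* did not set the lower-scoring members apart from the LECs just below them.

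Several features of the libraries bear on every result below. The IgG library held 4685 barcodes with 42337184 UMIs, of which 3438 barcodes were kept and 959 were gated as LECs. The Ang2 Ab library held 4331 barcodes with 31720670 UMIs, of which 2963 were kept and 501 were gated. Both libraries were labelled male, but 55.4% of the kept IgG cells and 38.8% of the kept Ang2 Ab cells had a UMI of *Xist*, the transcript of the inactive X chromosome, and 34.3% and 45.0% had a UMI of a Y-linked gene. Results are therefore also given for cells with 1 of these signals alone. The word control appears in the titles of both libraries, although the Ang2 antibody is the treatment that the labels give for the Ang2 Ab library, and the age is labelled as a range that starts before the first injection. The libraries shared 5 barcodes, none of them a gated LEC.

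Members made up 19.0% of the gated LECs in the IgG library (182 of 959, Clopper-Pearson 95% interval 16.5%–21.6%) and 7.39% in the Ang2 Ab library (37 of 501, 5.25%–10.0%). The share in the Ang2 Ab library was 0.389 of that in the IgG library (0.278–0.545), and the intervals of the shares did not overlap. All intervals given for the droplet libraries cover counting error only and leave out the variation between mice, so no p value is given for them. The score was lower in the Ang2 Ab library over all gated LECs, with a median of −1.27 against −0.501. When each cell was thinned to 3000 UMIs and rescored, which left out 29 and 15 shallower cells, the shares were 19.5% (181 of 930) and 6.38% (31 of 486). At the same score threshold, the cells with a Y-linked UMI and no *Xist* UMI gave shares of 19.1% (66 of 345) and 6.64% (17 of 256), and those with an *Xist* UMI and no Y-linked UMI gave 18.9% (98 of 519) and 6.88% (13 of 189). The lower share with Ang2 Ab was therefore seen in cells of either class. The part that the recovery of cells from tissue played in the shares was not tested, and with 1 library each it cannot be told apart from the antibody. In the other LECs the median log2 ratio of Ang2 Ab to IgG was −0.65 for the 7 collecting vessel genes of the score. It was 0.44 for the 3 capillary genes with at least 100 UMIs in members. Whether fewer cells were of this vessel type or cells of the same type had other levels of the score genes was not tested.

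**Figure D1:**
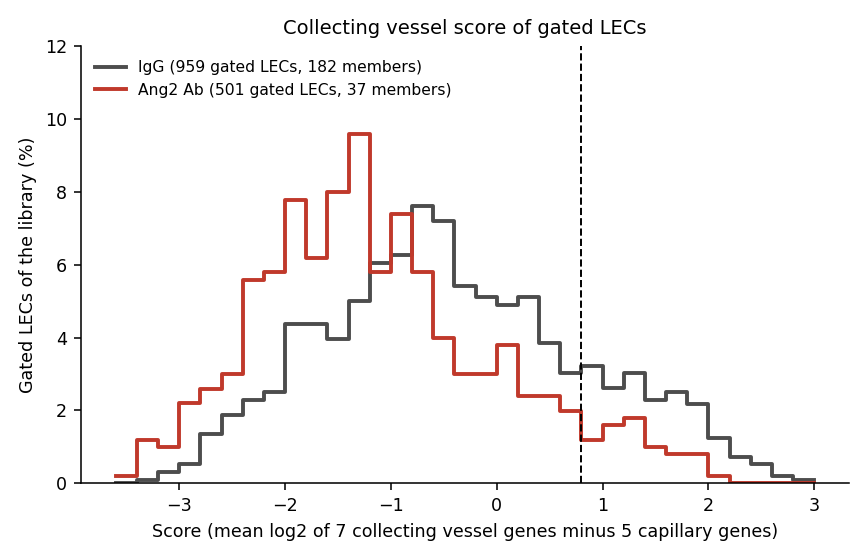
Distribution of the collecting vessel score (x axis, mean log2 of collecting vessel genes minus that of capillary genes) in the gated LECs of the IgG library (959 cells) and the Ang2 Ab library (501 cells), as percent of each library's gated LECs (y axis), with a dashed line at the lowest score of a member (0.793). The scores run without a gap across the line, and a smaller part of the Ang2 Ab distribution lies to its right (7.39% against 19.0%).

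The threshold cut a continuous range and did not separate a distinct cell type. The 3 members nearest to it scored 0.801, 0.799 and 0.793, and the 3 nearest cells outside scored 0.791, 0.790 and 0.789, while 23 members and 17 other LECs lay within 0.1 of the threshold. Members and other LECs had similar depth, with medians of 12758 and 12518 UMIs per cell in the IgG library and 10749 and 12164 in the Ang2 Ab library. The members of the IgG library held 2467907 UMIs in all and those of the Ang2 Ab library 414554. Levels are given below as UMIs of a gene per 1000000 UMIs of the summed cells (CPM), and a count of 0 allows up to 1.22 CPM in IgG members and 7.24 CPM in Ang2 Ab members (3 UMIs). The genes that define the score are described first and only as a check, since they chose the cells. *Tgm2* was at 404 CPM in IgG members, 181 in the other IgG LECs, 441 in Ang2 Ab members, and 100.4 in the other Ang2 Ab LECs, and this transglutaminase gene was thus also present outside the group. *Procr*, which encodes the endothelial protein C receptor, was 5.14-fold and 9.56-fold higher in members of the IgG and Ang2 Ab libraries, and *Bgn*, which encodes the matrix proteoglycan biglycan, 1.90-fold and 2.53-fold. *Reln*, which encodes the secreted glycoprotein reelin, was at 128 against 675 CPM and at 133 against 918 CPM.

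Genes outside the score were then compared between members and other LECs, which is a description because the same cells were chosen by their expression. Of 10192 genes with at least 100 UMIs, 131 (1.29%) were at least 2-fold higher in members in both libraries and 417 (4.09%) were at most 0.5-fold. The minimum was set on the sum over members and other LECs of both libraries, and the other LECs held most of these UMIs. Genes low in members could therefore pass it through the other LECs. A gene near the minimum would have few UMIs in Ang2 Ab members, so the numbers of higher and lower genes are not comparable with each other. The 15 highest were *Ackr4*, *Parm1*, *Slco2a1*, *Tmem158*, *Gata6*, *Fmo2*, *Fabp4*, *Mfap2*, *Apoe*, *Socs3*, *Tgfa*, *Bmp4*, *Lsr*, *Klrb1f* and *Fblim1*. They include transporters and membrane proteins, secreted ligands, lipid carriers and a transcription factor, and are taken in that order.

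Among the membrane proteins, the prostaglandin transporter gene *Slco2a1* (chr9:102988712-103096002 on GRCm38) had one of the clearest differences. *Slco2a1* was at 154 CPM in IgG members, 11.5 in the other IgG LECs, 133 in Ang2 Ab members, and 9.67 in the other Ang2 Ab LECs. The ratios were 13.4 (IgG, 95% interval 10.9–16.5) and 13.7 (Ang2 Ab, 9.37–20.1). At least 1 *Slco2a1* UMI was found in 58.2% of IgG members and 48.6% of Ang2 Ab members, against 9.27% and 5.60% of the other LECs and 7.02% and 4.55% of the nonendothelial cells of the same libraries, which served as a reference for free RNA (median depth, 7012 and 9274 UMIs). In cells thinned to 3000 UMIs the shares were 27.5% and 32.4% of members, against 3.32% and 4.01% of the other LECs. *Parm1* (chr5:91517615-91626894), which encodes a mucin-like membrane protein, was at 67.3 and 72.4 CPM in members and 4.76 and 4.37 CPM in the other LECs. Its ratios were 14.1 (IgG, 95% interval 10.3–19.8) and 16.6 (Ang2 Ab, 9.57–28.8). The other LECs held 51 and 28 *Parm1* UMIs, so the gene reached the minimum of UMIs only through the members. A *Parm1* UMI was found in 41.8% and 43.2% of members and 4.25% and 3.66% of the other LECs, but also in 15.2% and 22.2% of the nonendothelial cells. Of the 182 IgG members, 52 had UMIs of both *Slco2a1* and *Parm1* and 52 of neither. Of the 37 Ang2 Ab members, 7 had both and 10 had neither. *Lsr*, which encodes a lipoprotein receptor that is also found at cell junctions, had ratios of 6.65 and 7.09 in the IgG and Ang2 Ab libraries. The lectin-like receptor gene *Klrb1f*, a member of a family of similar genes among which reads may be split, had ratios of 3.77 and 5.68, and the membrane protein gene *Tmem158* of 9.51 and 9.43.

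*Ackr4*, which encodes an atypical receptor that takes up the chemokines CCL19, CCL21 and CCL25, was confined to few cells and passed the minimum of 100 UMIs only through the IgG members. It had 146 UMIs in IgG members and 5 in the other IgG LECs, a ratio of 127 (95% interval 53.1–397). In the Ang2 Ab library, members had 6 UMIs and the other LECs none, a level 30.9-fold higher when the other LECs are set at 3 UMIs, and at least 18.2-fold higher by the exact counting interval. The transcript was found in 17 of 182 IgG members and in 1 of 37 Ang2 Ab members, and 15 of these 17 cells and the single Ang2 Ab cell also had *Slco2a1*. The sorted nonendothelial cells contained it too (14.6% and 6.06% of cells), whereas among the other LECs it was found in 0.129% of the IgG cells and in none of the 464 Ang2 Ab cells.

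Secreted ligands formed another part of the group. *Bmp4*, a ligand of the bone morphogenetic protein family, was at 92.8 CPM in IgG members (229 UMIs) and 157 in Ang2 Ab members (65 UMIs). The other LECs held 129 and 239 UMIs among more cells, so that the ratio of members to other LECs was 7.71 in the IgG library (6.19–9.65) and 4.21 in the Ang2 Ab library (3.15–5.56). In the Ang2 Ab library *Bmp4* was at 135 CPM (109–166) from a score of 0 to the threshold and at 131 CPM (90.9–183) in members below their median score. *Tgfa*, which encodes a ligand of the epidermal growth factor receptor, had ratios of 4.45 and 4.86. *Apoe*, which encodes a lipid-carrying protein of lymph and plasma, had ratios of 4.42 and 6.75, with 22.1% of its UMIs in the other LECs in 1 cell, and *Mfap2*, which encodes a protein of the microfibrils of elastic fibers, 5.75 and 7.19.

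Inside the cell, the fatty acid–binding protein gene *Fabp4* was among the most abundant. *Fabp4* was at 1522 CPM in IgG members, 129 in the other IgG LECs, 741 in Ang2 Ab members, and 116 in the other Ang2 Ab LECs, and its ratios were 11.8 and 6.40. The transcription factor gene *Gata6* had ratios of 8.86 and 14.5 from 155 and 15 UMIs in members. The other LECs held 76 and 16 *Gata6* UMIs, so the gene reached the minimum of UMIs only through the members. *Socs3*, which encodes an inhibitor of cytokine signaling through the JAK-STAT pathway, had ratios of 3.56 and 4.28, *Fmo2*, a flavin-containing monooxygenase gene, 8.31 and 7.50, and *Fblim1*, which encodes a filamin-binding protein of cell-matrix contacts, 3.89 and 4.28.

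**Figure D2:**
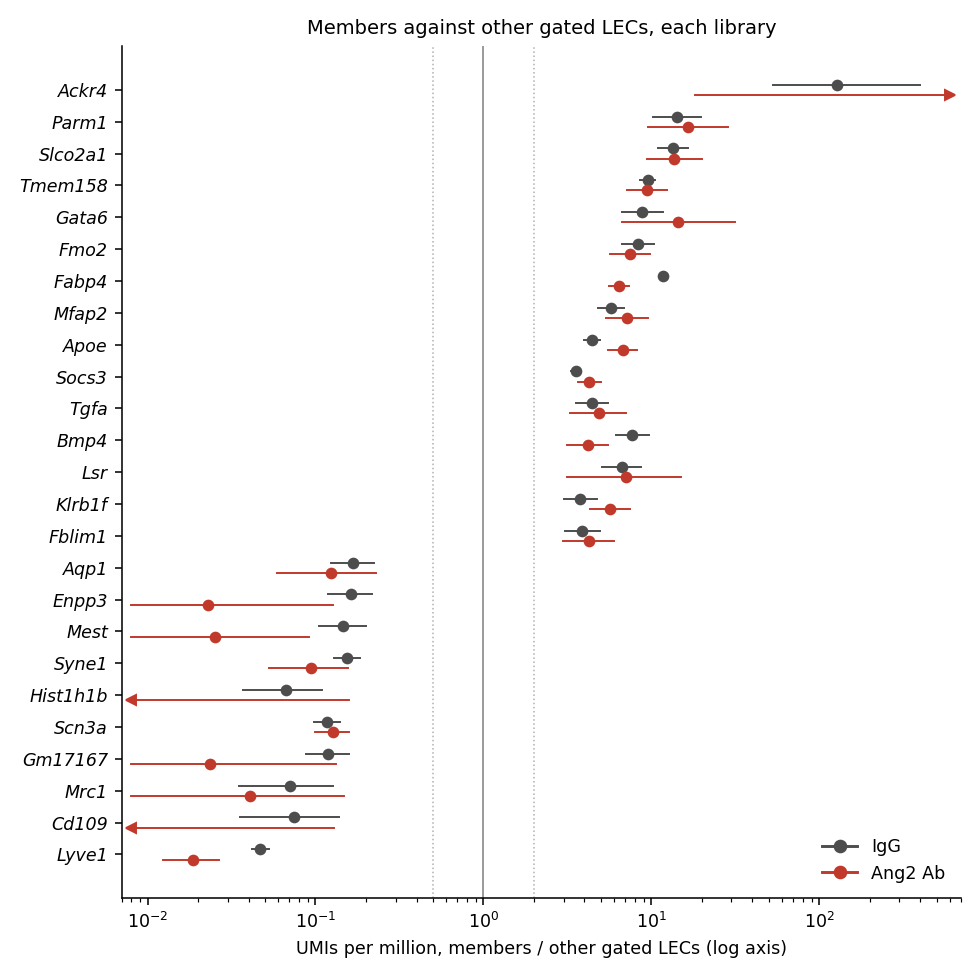
Ratio of members to other LECs (x axis, log scale) for the 15 highest and 10 lowest named genes (y axis), with a point for each library, bars for 95% counting intervals and arrowheads at the edge where a group had 0 UMIs. Every point of the 15 genes lies above 2 and every point of the 10 genes below 0.5 (dotted lines), and the libraries lie on the same side for each gene.

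The promoters of *Slco2a1* and *Parm1* are shown because these genes lay outside the score, were among the 3 highest by rank, and also rose on the plates described below. Each sequence is the 250 bases before the start of the gene in RefSeq on the plus strand of GRCm38.p6, at chr9:103008237-103008486 for *Slco2a1* and chr5:91517450-91517699 for *Parm1*. The GENCODE models of both genes, whose coordinates are given above, start upstream of the RefSeq start. Capitals mark a match to CCCACCC or its reverse complement GGGTGGG, letters bound by factors of the Krüppel-like family, several of which respond to flow in endothelium.
Slco2a1: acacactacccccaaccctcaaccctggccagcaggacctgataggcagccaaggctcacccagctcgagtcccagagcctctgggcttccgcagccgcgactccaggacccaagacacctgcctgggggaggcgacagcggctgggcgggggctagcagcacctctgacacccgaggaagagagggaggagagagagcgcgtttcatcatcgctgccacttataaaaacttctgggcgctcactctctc
Parm1: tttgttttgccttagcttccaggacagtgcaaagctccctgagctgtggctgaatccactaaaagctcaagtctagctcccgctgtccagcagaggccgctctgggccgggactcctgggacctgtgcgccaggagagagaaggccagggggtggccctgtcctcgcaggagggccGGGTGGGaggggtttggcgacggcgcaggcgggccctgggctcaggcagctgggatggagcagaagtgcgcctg
The *Parm1* window held GGGTGGG once and the *Slco2a1* window held no match. Over windows of the same kind that also included the 50 bases after the start, these letters were found on either strand in 4655 of 27025 promoters (17.2%) and in 4 of the 12 named genes with an entry, *Apoe*, *Lsr*, *Parm1* and *Tgfa*. The forkhead letters TGTTTAC or GTAAACA were found in 3.55% of all promoters and the GATA letters AGATAAG or CTTATCT in 3.08%, and neither in the 12. These matches describe letters in a window and not binding.

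The 10 genes lowest in members were *Lyve1*, *Cd109*, *Mrc1*, *Gm17167*, *Scn3a*, *Hist1h1b*, *Syne1*, *Mest*, *Enpp3* and *Aqp1*. *Lyve1* was at 121 CPM in IgG members against 2571 in the other IgG LECs, and at 67.5 against 3645 CPM in the Ang2 Ab library. These levels correspond to ratios of 0.0470 (IgG, 95% interval 0.0418–0.0526) and 0.0185 (Ang2 Ab, 0.0123–0.0268). The gene was not absent, since 49 of 182 IgG members and 9 of 37 Ang2 Ab members had a *Lyve1* UMI (26.9% and 24.3%), against 7.02% and 7.07% of the nonendothelial cells. The mannose receptor gene *Mrc1* had ratios of 0.0702 and 0.0406, *Cd109*, which encodes a membrane protein that binds TGF-β, 0.0741 in the IgG library and no UMI in Ang2 Ab members, the sodium channel gene *Scn3a* 0.118 and 0.127, and the water channel gene *Aqp1* 0.168 and 0.124. The imprinted gene *Mest* had ratios of 0.147 and 0.0251 and the ectonucleotidase gene *Enpp3* 0.163 and 0.0228. *Hist1h1b*, a linker histone gene made in S phase and one of a family of similar genes, was at 6.08 and 0 CPM in members, where 1 cell held 80% of its UMIs, and at 91.6 and 56.3 CPM in the other LECs. The proliferation genes *Mki67*, *Top2a*, *Birc5*, *Ube2c*, *Cdk1* and *Cenpa* summed to 111 CPM in IgG members against 378, and to 12.1 against 247 CPM in the Ang2 Ab library, where 4 of the 6 had no UMI in members.

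The receptors of the Ang/Tie and VEGF pathways did not all differ alike. *Tek* was at 176 CPM in IgG members and 142 in Ang2 Ab members, with ratios to the other LECs of 1.69 (IgG, 95% interval 1.51–1.89) and 1.80 (Ang2 Ab, 1.35–2.37). *Tie1* was at 369.9 and 391 CPM in members and at 379 and 399 CPM in the other LECs (ratios, 0.975 and 0.980). The ligand gene *Angpt2*, which encodes Ang2, was lower in members, with ratios of 0.475 (IgG, 95% interval 0.395–0.568) and 0.313 (Ang2 Ab, 0.255–0.379). Among 4 genes of the Ang/Tie list that could be compared, *Angpt2* alone passed the 2-fold limit. *Flt4*, which encodes the VEGF-C receptor VEGFR3, was at 351 against 728 CPM in the IgG library and at 333 against 715 CPM in the Ang2 Ab library (ratios, 0.482 and 0.465). The ratios were 0.602 and 0.531 for its coreceptor gene *Nrp2* and 0.903 and 0.964 for the VEGFR2 gene *Kdr*. Of 6 VEGF pathway genes compared, *Flt4* and the ligand gene *Pgf* were at most 0.5-fold and none was 2-fold higher. The gene *Prox1* was part of the gate and had ratios of 0.640 and 0.654.

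Other gene lists were counted against the background of 1.29% of genes higher and 4.09% lower. Of 6 genes for signals to smooth muscle, 3 were at least 2-fold higher in both libraries and none lower: *Pdgfa* (2.03 and 3.95), which encodes a platelet-derived growth factor chain, *Nos3* (2.73 and 5.76), which encodes the nitric oxide synthase of endothelium, and *Edn1* (16.8 and 2.22), which encodes the vasoconstrictor endothelin 1. The median log2 ratio of this list was 1.02 in the IgG and 0.83 in the Ang2 Ab library, against −0.15 and −0.09 over all genes compared. In the Ang2 Ab library *Edn1* was not particular to members. It was at 148 CPM (129–168) in LECs scoring from −1 to 0, at 108 (71.8–156) in members below their median score and at 187 (125–268) in those above. Of 6 hemostasis and prostaglandin genes, *Slco2a1* and *Thbd*, which encodes thrombomodulin (2.26 and 2.52), were higher. Of 8 flow-response genes, *Nos3* and the forkhead gene *Foxc1* (2.14 and 2.19) were higher, while *Klf2* (1.60 and 1.86), *Foxc2* (1.32 and 1.69) and *Gata2* (1.30 and 1.85) stayed within the limit in both libraries. Of 13 genes of BMP and TGF-β signaling, *Bmp4* and the inhibitory *Smad7* (3.73 and 7.14) were higher and the target gene *Id2* was lower. Of 11 chemokine and sphingosine-1-phosphate genes, *Ackr4* was higher, with the limit on its UMIs given above, and *Ackr2*, which encodes another atypical chemokine receptor, and *Ccl21a* were lower. Of 6 leukocyte adhesion genes, *Vcam1* was higher and *Mrc1* lower, but 1 cell held 27.9% of the *Vcam1* UMIs of members.

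Structural and signaling lists showed fewer differences. Of 15 basement membrane genes, *Sparc* (2.81 and 2.02) was higher, and *Col4a1*, which encodes a chain of collagen IV, had ratios of 0.402 and 0.721. Of the junction genes, *Jam3*, which encodes a junctional adhesion molecule, was higher. None of 17 PI3K and FoxO genes, 7 Notch genes or 12 axon guidance genes passed 2-fold in either direction in both libraries.

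Markers of LECs and of other cells were then measured in the members. The 10 LEC genes summed to 8118 CPM in IgG members and 20202 in the other LECs, and to 5276 and 14289.9 in the Ang2 Ab library, with *Ccl21a* the most abundant in IgG members and *Mmrn1* in Ang2 Ab members and none at 0. The median log2 ratio of the 9 LEC genes compared, of which *Prox1* was part of the gate and not compared, was −0.73 and −0.81, and *Flt4* and *Ccl21a* were at most 0.5-fold in both libraries. The 12 blood endothelial genes summed to 940.1 CPM in IgG members and 714 in the other LECs, and to 1102 and 771 in the Ang2 Ab library. *Emcn*, which encodes endomucin, was the most abundant of them in members (454 and 475 CPM), with ratios of 3.23 and 3.33, and its difference alone was larger than that between the sums in each library. *Aqp1* of this list was lower in members (0.168 and 0.124), no other of the 8 genes compared passed the 2-fold limit in both libraries, and *Ackr1*, *Selp* and *Nostrin* had no UMI in Ang2 Ab members. The 8 mural genes summed to 47.8 CPM in IgG members and 2041 in Ang2 Ab members, where 1 cell held 821 of 846 UMIs and *Rgs5* was the most abundant (666 CPM). The 6 fibroblast genes summed to 1175 CPM in IgG members, where 1 cell held 2667 of 2899 UMIs and *Col1a1* was the most abundant (508 CPM), and to 128 CPM in Ang2 Ab members. Cells with at least 20 UMIs over mural, fibroblast, keratinocyte, immune and Schwann genes numbered 3 of 182 and 1 of 37 members and 8 of 777 and 11 of 464 other LECs. Immune genes summed to 10.5 and 16.9 CPM in members, with *Ptprc*, *Lyz2*, *Cd3e*, *C1qa* and *Cd52* at 0. Keratinocyte genes summed to 7.70 and 9.65 CPM and Schwann genes to 2.84 and 2.41 CPM, with *Krt1* and *Sox10* at 0 in both. The 10 immediate early and stress genes that respond to tissue dissociation, led by *Fos*, summed to 19376 CPM in IgG members against 11213 in the other LECs, and to 13229 against 7864 CPM in the Ang2 Ab library. Their part in the differences between members and other LECs, including that of the induced gene *Socs3*, was not tested.

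Because the score was continuous, levels were followed over 6 ranges of it: under −2, −2 to −1, −1 to 0, 0 to the threshold, and below and above the members' median of 1.40. *Lyve1* had 4464 CPM in the lowest range of the IgG library and 224 and 27.0 in the member ranges, and in the Ang2 Ab library 5359, 92.6 and 25.7 CPM. *Slco2a1* was at 2.01 CPM in the lowest range of the IgG library and at 101 and 202 in the member ranges, and at 0.708, 143 and 116 CPM in the Ang2 Ab library. In IgG members the counting intervals of the lower and upper ranges did not overlap (83.3–121 and 178–227 CPM), and in Ang2 Ab members, with 37 and 18 UMIs, they did. *Fabp4* was at 762 and 2210.4 CPM in the lower and upper member ranges of the IgG library, and at 563 and 1036 CPM in those of the Ang2 Ab library. All *Ackr4* UMIs of members lay in the upper range, which held 96 IgG and 14 Ang2 Ab cells. *Ccl21a*, which encodes the chemokine that draws CCR7-expressing immune cells into lymphatic vessels, was at 12824, 15706, 13015, 9776, 5955 and 1057 CPM along the 6 ranges in the IgG library. In the Ang2 Ab library it was at 10169.9, 7409.8, 6196, 2679, 359 and 109 CPM. Its level was lower in the Ang2 Ab library in every range. As a ratio the difference was largest in the member ranges, and in CPM it was largest from −2 to −1.

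**Figure D3:**
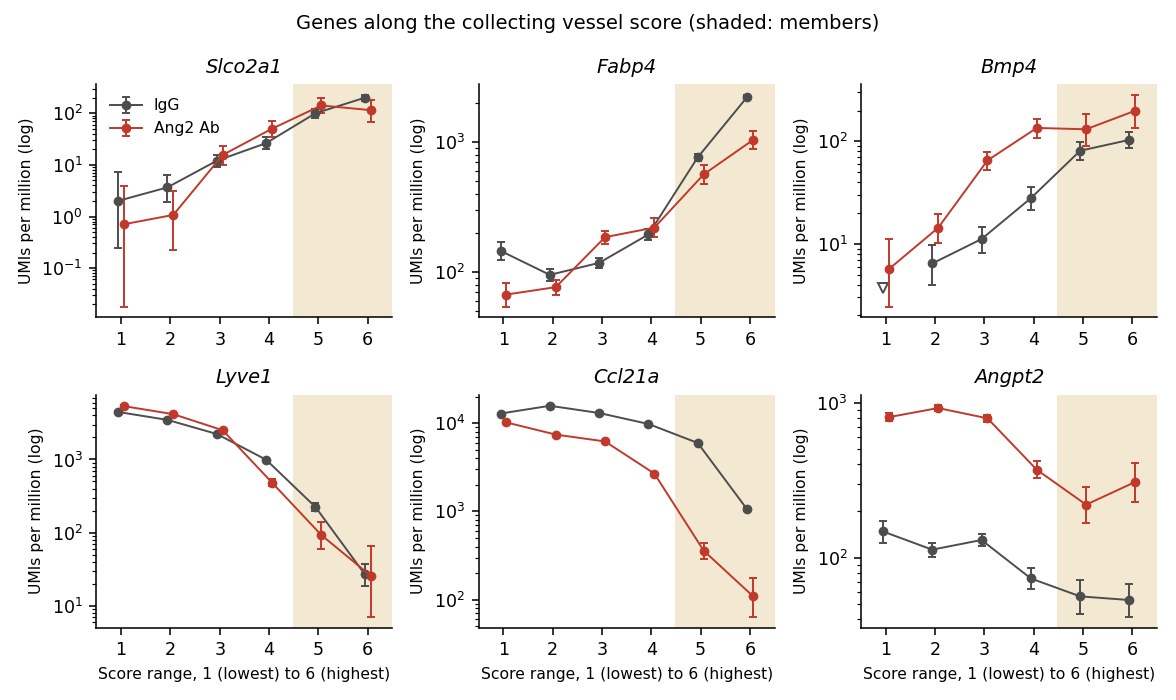
Levels in UMIs per 1000000 (y axis, log scale) of 6 genes over 6 ranges of the score (x axis), with a line for each library, 95% counting intervals as bars, open triangles for the upper limit at 0 UMIs, and the 2 member ranges shaded. *Lyve1* and *Ccl21a* are lowest in the shaded ranges and *Slco2a1* is highest there, and *Angpt2* is higher in the Ang2 Ab library in all 6 ranges.

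To compare the libraries within the collecting vessel LECs, 4482 genes with at least 100 UMIs in members were used. In the Ang2 Ab members 43 (0.959%) were at least 2-fold higher and 87 (1.94%) at most 0.5-fold, and the median log2 ratio was 0.0147. Of these genes, 10 of the 43 and 20 of the 87 passed the same limit in the other LECs, where 22 and 45 of the 4482 genes passed it in all. Members were fewer than the other LECs, so their ratios have wider counting errors, and the numbers of genes past the limit are not comparable between the groups. The minimum was set on the sum over members of both libraries, of which IgG members held 2467907 UMIs and Ang2 Ab members 414554. Genes low with Ang2 Ab could thus pass it through the IgG members, so the numbers of higher and lower genes are not comparable either.

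The 12 genes highest with Ang2 Ab were led by *Angpt2*, the gene of the antibody's own target. It was at 54.7 CPM in IgG members and 253 in Ang2 Ab members, 4.63-fold higher (3.55–6.02). In the other LECs it was at 115 and 810.0 CPM, 7.04-fold higher (6.61–7.50), so that the ratio in members was 0.658 (0.506–0.855) of that in the other LECs. The ratio in members lay in a range from 3.39 to 5.19 over all alternatives, including each sex class. Its level in the upper member range was 53.3 CPM with IgG and 309 with Ang2 Ab, and in the lowest score range 148 and 808 CPM. An *Angpt2* UMI was found in 31.9% of IgG members and 75.7% of Ang2 Ab members (14.0% and 45.9% after thinning), and in 15.2% and 26.8% of the nonendothelial cells.

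For the other genes, the ratio in members is set beside that over all other LECs. Fewer of the other LECs lay in the lowest score range in the IgG library (86 of 777) than in the Ang2 Ab library (108 of 464), so that ratios over all other LECs also carry this difference in their mix. *Cd93*, which encodes an adhesion-related glycoprotein of endothelium, was 2.49-fold higher in members (2.00–3.08) and 2.14-fold in the other LECs, and *Plxnd1*, which encodes a semaphorin receptor, 2.39-fold (1.79–3.15) and 1.58-fold. *Klrb1f* was 2.98-fold and 1.98-fold higher, the growth factor gene *Igf2* 2.89-fold and 2.62-fold, and *Scn3a* 3.58-fold and 3.32-fold. These last values in members depended on which cells were taken, from 1.52 to 5.21 for *Igf2* and from 1.52 to 10.6 for *Scn3a* over the alternatives. *Plat*, which encodes tissue plasminogen activator, was at 36.9 and 133 CPM in IgG and Ang2 Ab members, 3.60-fold higher (2.53–5.08), whereas the other LECs were at 29.8 and 26.8 CPM, a ratio of 0.899 (0.742–1.09). Along the score this was not particular to members, since *Plat* was at 3.02 (IgG) and 19.8 CPM (Ang2 Ab) under −2 and at 7.66 and 15.8 CPM from −2 to −1, with counting intervals that did not overlap in either range. It was at 35.3 and 37.8 CPM from −1 to 0, 65.1 and 62.4 from 0 to the threshold, and 51.7 and 251 in the upper member range. The ratio in members lay in a range from 2.36 to 6.58 over the alternatives. The matrix protein gene *Tgfbi* was 2.82-fold higher in members (2.41–3.31) and 1.13-fold in the other LECs, with 1.73-fold in members of the thinned score. *Cald1*, which encodes the actin-binding protein caldesmon, was 2.21-fold higher (1.89–2.58) in members, but 1.46-fold without the cells that held 20 UMIs of other cell types and 0.966-fold with a mitochondrial limit of 5%. It was at 254 (IgG) and 710.0 CPM (Ang2 Ab) in the lower member range and at 242 and 277 in the upper one, where the counting intervals overlapped. The focal adhesion gene *Zyx* (2.14-fold in members, 1.25-fold in the other LECs), *Nrxn2* (2.26 and 1.84) and *Trp53i11* (2.30 and 1.42) complete the 12. Over the alternatives the members' ratio went from 1.73 to 4.82 for *Tgfbi*, from 1.87 to 2.99 for *Cd93*, from 1.76 to 3.53 for *Plxnd1*, from 1.81 to 3.28 for *Klrb1f*, from 1.47 to 2.70 for *Zyx*, from 1.35 to 2.54 for *Nrxn2* and from 1.79 to 4.29 for *Trp53i11*. Of the 12 genes, *Angpt2* and *Plat* alone stayed at or above 2-fold in all of these alternatives.

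Of the 12 genes lowest with Ang2 Ab, *Ccl21a* had the largest difference in level. It was at 3384 CPM in IgG members and 265 in Ang2 Ab members, a ratio of 0.0784 (0.0644–0.0946), and at 13167 and 7230.5 CPM in the other LECs, a ratio of 0.549. The members' value depended on the threshold, since it was 0.827 when the highest 15% of each library were taken, 0.237 with the thinned score and 0.0391 in the highest 10%. These are pooled levels, and the median IgG member lay far below the pooled level while the median Ang2 Ab member was at 0. A *Ccl21a* UMI was found in 69.8% of IgG members and 48.6% of Ang2 Ab members, and in 98.1% and 89.4% of the other LECs. It was also found in 36.8% and 23.2% of the nonendothelial cells, and the part of free RNA in the members' levels was not tested. *Ccl21a* has nearly identical copies in the genome, and reads of these copies may be left out or split. *Ptn*, which encodes the secreted growth factor pleiotrophin, was at 490.3 and 94.1 CPM in members (ratio, 0.192, 0.136–0.264) and at 321 and 54.1 in the other LECs (ratio, 0.169), and no alternative moved the members' ratio by over 1.5 times. The IGF-binding protein gene *Igfbp5* was at 705 and 200.2 CPM in members (ratio, 0.284, 0.225–0.354) and had a ratio of 0.272 in the other LECs. Its ratio in members was 0.105 without the cells holding 20 UMIs of other cell types. *Igfbp3* had ratios of 0.138 and 0.403, with 0.661 in members when the highest 15% of each library were taken.

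*Fabp5*, a fatty acid–binding protein gene related to *Fabp4*, differed between members and other LECs. It was at 251 CPM in IgG members and 55.5 in Ang2 Ab members, a ratio of 0.221 (0.139–0.335), and at 13.8 and 14.2 CPM in the other LECs, a ratio of 1.03 (0.783–1.34). Over the ranges below the threshold it was at 9.19 (IgG) and 5.37 CPM (Ang2 Ab) from −2 to −1 and at 22.3 and 43.1 from 0 to the threshold. The ratio of these pooled ratios was 0.215 (0.132–0.352), and the members' ratio stayed in a range from 0.124 to 0.361. *Fabp4* had a ratio of 0.486 in members, from 0.259 to 0.667 over the alternatives. *Ackr3*, which encodes an atypical receptor for CXCL12 and adrenomedullin, had ratios of 0.333 in members and 0.527 in the other LECs. The stress-induced genes *Gdf15* (0.402 and 0.496), *Ier3* (0.388 and 0.672) and *Dusp2* (0.413 and 0.435) were lower in both groups of cells, beside a sum of the 10 dissociation stress genes that was lower with Ang2 Ab in both. *Aldh2*, an aldehyde dehydrogenase gene, had ratios of 0.283 and 0.410, the transmembrane collagen gene *Col23a1* 0.274 and 0.525, and the matrix protein gene *Abi3bp* 0.368 and 0.645. Over the alternatives the members' ratio went from 0.270 to 0.526 for *Ackr3*, from 0.158 to 0.494 for *Dusp2*, from 0.126 to 0.493 for *Aldh2* and from 0.209 to 0.696 for *Abi3bp*, so all stayed below 1.

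**Figure D4:**
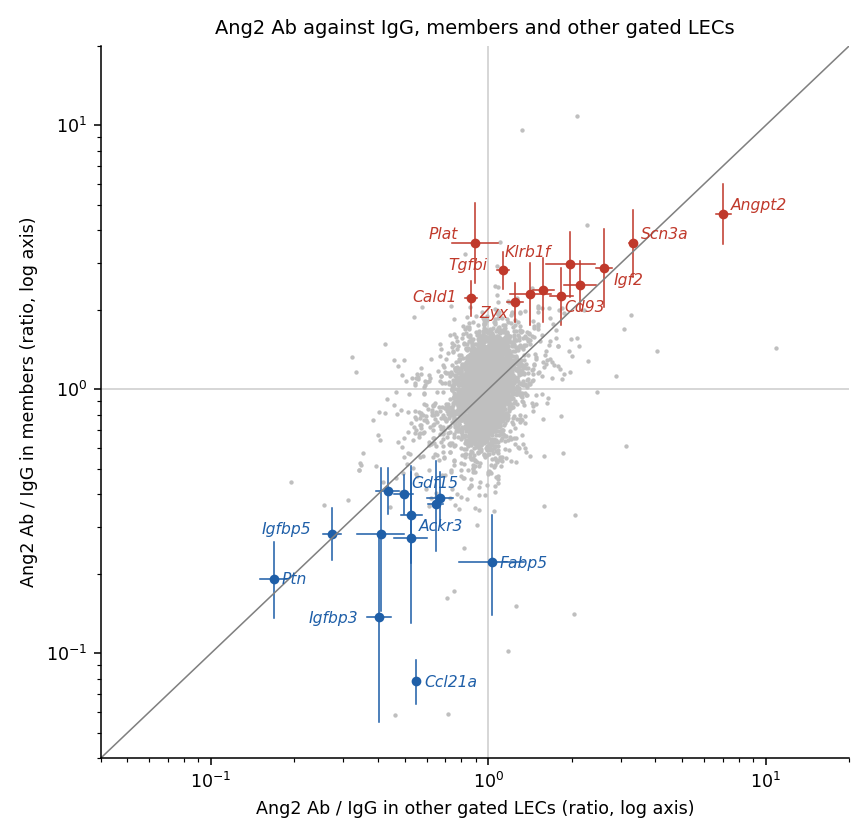
Ratio of Ang2 Ab to IgG in members (y axis, log scale) against that in the other LECs (x axis, log scale) for genes with at least 100 UMIs in members (gray), with the 12 highest (red) and 12 lowest (blue) named genes, their 95% counting intervals as bars and a line of equal ratios. *Angpt2* is high on both axes, *Plat* has a ratio of 3.60 in members and 0.899 over all other LECs pooled, and *Fabp5* and *Ccl21a* lie below the line of equal ratios, and 5 genes lie off the axes.

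The genes of the Tie and VEGF receptors stayed within the 2-fold limit in members. The ratio of Ang2 Ab to IgG was 1.06 for *Tie1* (0.888–1.25), 0.807 for *Tek* (0.604–1.06), 0.949 for *Flt4* (0.787–1.14) and 0.864 for *Kdr* (0.723–1.03). *Nrp2* had a ratio of 0.567 (0.439–0.721), with 0.337 in cells with Y-linked and 0.971 in cells with *Xist* UMIs. *Lyve1* had a ratio of 0.559 in members and 1.42 in the other LECs, and the members' ratio went from 0.100 to 1.83 over the alternatives, so that no direction can be given. Of the collecting vessel genes, *Slco2a1* had a ratio of 0.864 (0.639–1.15) in members, *Tgm2* 1.09 (0.927–1.28) and *Procr* 0.963 (0.808–1.14), while *Plvap* was at 660.1 and 314 CPM (ratio, 0.475, 0.394–0.568). Each member had to pass the score threshold, which limits how far score genes can differ between the libraries. The muscle signal gene *Edn1* had a ratio of 1.44 (1.06–1.93) in members and 10.9 (8.32–14.5) in the other LECs, which had 61 and 398 UMIs in all. *Bmp4* had ratios of 1.69 and 3.10, with 0.881 in members with *Xist* UMIs.

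By list, against a background of 0.959% of genes higher and 1.94% lower, the chemokine and sphingosine-1-phosphate list had 4 of 8 genes lower with Ang2 Ab in members (*Ccl21a*, *Cxcl1*, *Ackr3* and *Ackr4*) and none higher. This count rests on few UMIs and on the cells taken, as the ratio reached 0.827 for *Ccl21a*, 0.526 for *Ackr3* and 1.56 for *Ackr4* under alternatives, and Ang2 Ab members held 6 UMIs of *Ackr4*, in 1 cell, and 4 of *Cxcl1*, so that both genes reached the minimum of 100 UMIs only through the IgG members. The IGF list had *Igf2* higher and *Igfbp3* and *Igfbp5* lower among 7. *Plxnd1* and the netrin receptor gene *Unc5b* were higher among 9 axon guidance genes, *Tgfbr3* among 11 BMP and TGF-β genes, and *Plat* among 6 hemostasis genes, and *Icam1* (0.387) was lower among 4 leukocyte adhesion genes. None of 13 basement membrane genes, 10 junction genes, 9 PI3K and FoxO genes, 8 flow-response genes or 6 Notch genes passed the limit. The mural genes *Acta2*, *Tagln* and *Rgs5* were higher and the fibroblast genes *Col1a1*, *Col1a2* and *Col3a1* lower, beside the single members that held nearly all UMIs of these lists, and *Mgp* was higher with 53.3% of its UMIs in 1 cell.

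To see whether genes outside the score differed along with it in other samples, the score was computed in the wells of the 8 plates. They held 3048 wells, of which 2069 passed the same kind of gate, and the highest 15% of each plate gave 311 high-score wells (34 to 42 per plate). Their reads were summed per plate (7098262 to 11396177 reads) and compared with the sums of the other gated wells of the same plate by edgeR's quasi-likelihood test with the plate as a block. The wells were chosen by the 12 score genes, so the test asks which other genes moved with these. The score at the 15% limit was 1.51 and 1.66 in the Tie1 fl/fl plates, 1.81 and 1.84 in the Tie1 Tie2 fl/fl plates, 0.987 and 1.05 in the Tie1 iDLEC plates, and 0.294 and 0.0671 in the Tie1 Tie2 iDLEC plates, so that wells called high-score in the last reached lower scores than the droplet members did. Of 14267 genes, 118 (0.827%) rose and 100 (0.701%) fell in the high-score wells (Benjamini-Hochberg adjusted p below 0.05). Of the genes that fell, 56 averaged less than 1 CPM in the high-score wells.

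Of the 15 genes highest in droplet members, 9 rose on the plates and none fell. *Slco2a1* ranged from 0.845 to 637 CPM (median, 345) in the high-score wells and from 0.656 to 54.6 (median, 18.2) in the other gated wells, and was higher in the high-score wells of 8 of 8 plates. Its log2 fold change was 3.63 ± 0.68 (SE, edgeR adjusted p = 0.0249). The ranges over plates overlapped because both Tie1 Tie2 iDLEC plates were low in either group of wells (0.845 and 2.99 CPM in high-score wells). *Parm1* ranged from 1.18 to 178 CPM (median, 115) in the high-score wells and from 0 to 23.4 (median, 3.37) in the other gated wells, with a log2 fold change of 4.73 ± 0.63 (edgeR adjusted p = 0.00389). *Fabp4* ranged from 2.82 to 162 CPM (median, 34.4) in the high-score wells and from 0.152 to 3.98 (median, 2.52) in the other gated wells, and its log2 fold change was 4.48 ± 0.42 (edgeR adjusted p = 0.000479). Both were higher in 8 of 8 plates. *Lsr* (3.39 ± 0.36) and *Tgfa* (2.48 ± 0.29) rose in 8 plates, and *Apoe*, *Fblim1*, *Mfap2* and *Tmem158* in 6 to 8. The remaining 6 did not pass. *Klrb1f* had a log2 fold change of 1.81 ± 0.44 (edgeR adjusted p = 0.069), higher in 7 of 8 plates, and *Fmo2* 1.87 ± 0.52 (adjusted p = 0.118), higher in 6. *Bmp4* had a log2 fold change of 1.87 ± 0.72 (edgeR adjusted p = 0.257), higher in 6 of 8 plates, *Gata6* 4.50 ± 1.30 (adjusted p = 0.134), with at most 24.2 CPM in any plate, *Socs3* −0.25 ± 0.36 (adjusted p = 0.824) and *Ackr4* −0.29 ± 0.72 (adjusted p = 0.907), higher in 2 of 8 plates.

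**Figure D5:**
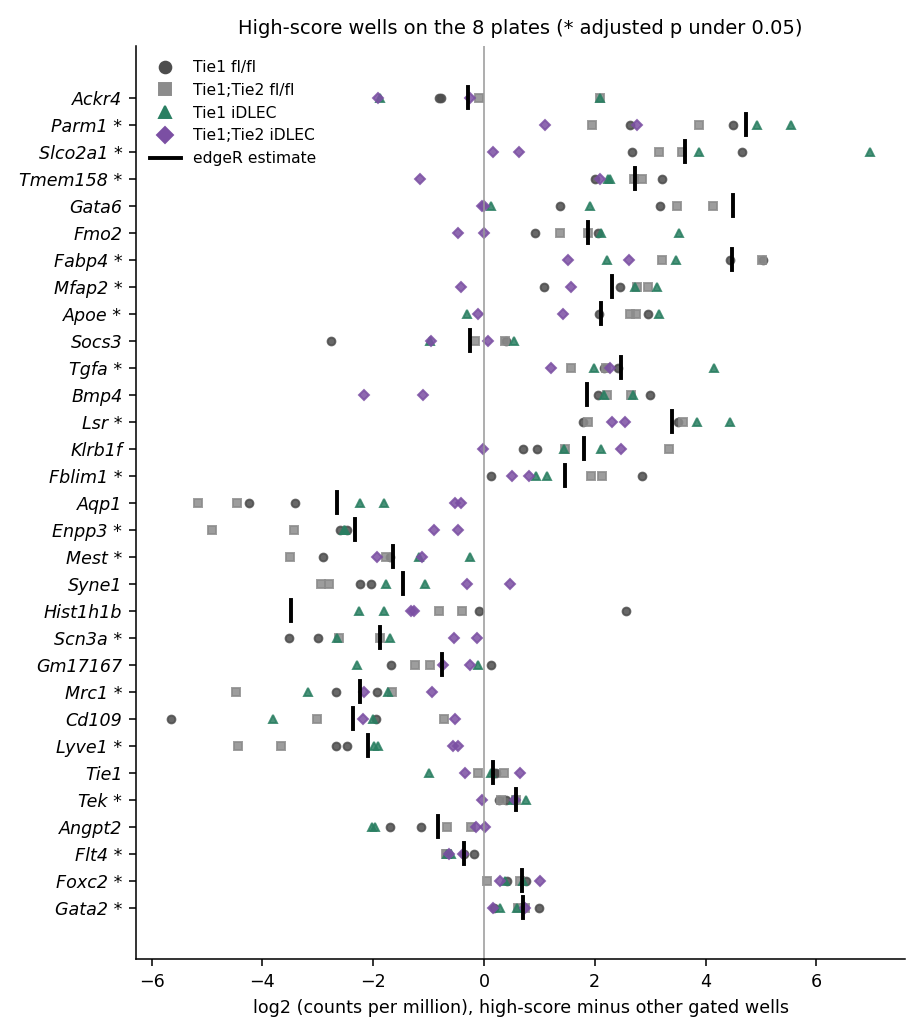
Difference in log2(CPM + 1) between high-score and other gated wells (x axis) for named genes (y axis), with a symbol for each of 8 plates, shaped and colored by genotype, a black tick for the edgeR estimate and an asterisk for an adjusted p under 0.05. *Slco2a1*, *Parm1* and *Fabp4* lie to the right of 0 in all 8 plates and *Lyve1* to the left in all 8, while *Ackr4* lies on both sides.

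Of the 10 genes lowest in droplet members, *Lyve1*, *Mrc1*, *Mest*, *Enpp3* and *Scn3a* fell on the plates and none rose. *Lyve1* ranged from 101 to 2950 CPM (median, 665) in the high-score wells and from 2201 to 4110 (median, 2994) in the other gated wells, and its log2 fold change was −2.10 ± 0.41 (edgeR adjusted p = 0.0288), lower in 8 of 8 plates. *Mrc1* (−2.25 ± 0.40) and *Enpp3* (−2.33 ± 0.43) did not overlap between the groups of wells. *Aqp1* had a log2 fold change of −2.65 ± 0.58 and did not pass (edgeR adjusted p = 0.0509). Over the wider lists, 128 of the 131 genes higher in droplet members were measured on the plates, of which 30 rose and none fell, which is 23.4% of these genes and 25.4% of all that rose. Of the 417 lower genes, 389 were measured, of which 24 fell and none rose, 6.17% of these genes and 24.0% of all that fell.

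Among pathway genes on the plates, *Tek* rose by 0.58 ± 0.11 on the log2 scale (edgeR adjusted p = 0.0273), higher in 7 of 8 plates. In the Tie1 Tie2 iDLEC plates, where *Tek* itself was deleted, the high-score wells had 51.6 and 36.2 CPM. *Ptprb*, which encodes a phosphatase of Tie2, rose by 0.74 ± 0.12 (edgeR adjusted p = 0.013), higher in 8 of 8 plates. *Tie1* (0.16 ± 0.14, adjusted p = 0.68) and *Angpt2* (−0.83 ± 0.24, adjusted p = 0.121) did not pass. *Flt4* changed by −0.37 ± 0.07 (edgeR adjusted p = 0.025), lower in 8 of 8 plates, while *Nrp2* (0.00 ± 0.16) and *Kdr* (0.26 ± 0.09) did not pass. *Pgf* fell by −2.77 ± 0.59 (edgeR adjusted p = 0.0451), lower in 8 of 8 plates, and none of the 8 VEGF pathway genes tested rose. Of the flow-response genes, *Nos3* (2.30 ± 0.34), *Foxc2* (0.69 ± 0.11) and *Gata2* (0.70 ± 0.11) rose, each in 8 plates. *Thbd* (1.69 ± 0.31), *Emcn* (1.45 ± 0.27) and *Sparc* (1.33 ± 0.27) rose, as did *Agrn* (0.77 ± 0.12), which encodes the basement membrane proteoglycan agrin. Of the junction genes, *Cldn5* (0.27 ± 0.06), *Esam* (1.09 ± 0.12) and *Pecam1* (0.36 ± 0.05) rose, and in the droplet members the ratios were 1.29 and 1.39 for *Cldn5*, 1.68 and 1.45 for *Esam* and 0.927 and 1.20 for *Pecam1*. The muscle signal genes *Edn1* (2.21 ± 0.60, adjusted p = 0.105) and *Pdgfa* (1.06 ± 0.25, adjusted p = 0.0626) were higher in 7 of 8 plates but did not pass. Among 10 dissociation stress genes *Jun* alone rose (0.59 ± 0.12) and none fell. The median log2 fold change of this list was −0.40, against −0.13 over all genes tested, whereas its sum was higher in droplet members. The number of genes called depended on the plates used. With any 1 of the 6 plates other than Tie1 Tie2 iDLEC left out, 52 to 73 genes rose and 34 to 59 fell, and in the 4 plates without Cre alone, 50 rose and 12 fell. Without the plate as a block, 22 rose and 46 fell.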

How the data were processed

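The droplet libraries were deposited by the authors as filtered UMI counts per gene and cell over 32285 genes, made with Cell Ranger (6.0.2 in the matrix headers, 2.1.1 in the submitters' processing notes). The plate tables deposited by the authors hold counts of reads for each gene in each well, taken after duplicate reads had been removed, and the notes name TopHat2 2.1.1, SAMtools 0.1.18 and featureCounts on GRCm38. None of these counts was normalized. Plate tables named genes by symbol or by identifier, with 1 plate of each kind per genotype, and were joined on 42544 genes.

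The definition of the collecting vessel LECs, the gene lists and the tests were chosen with earlier results of these data known. UMIs were summed over the cells of a group and divided by their total. A gene was counted as different at a ratio of at least 2 or at most 0.5, with at least 100 UMIs, and ratios have exact conditional binomial 95% intervals. A group at 0 was given a floor of 3 UMIs. Named genes are the score genes and markers, the 15 highest and 10 lowest genes in members by the counting bound nearest 1 of the less extreme library, and the 12 highest and 12 lowest with Ang2 Ab by the same bound, these last only among genes of which no single member held over 20% of the members' UMIs. Sex-linked, mitochondrial and ribosomal protein genes were not ranked. Genes named from lists outside this rule, such as *Edn1*, were chosen after their values were seen. No doublets were removed, and leaving out the 5% of cells with the highest Scrublet scores (172 and 148 cells) was an alternative. Coordinates are those of GENCODE on GRCm38. A result over the lists is not reported here.

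On plates, gated wells had at least 1000 genes and 2 *Prox1* reads, at most 1 *Flt1* read and fewer than 5 valve gene reads per 10000. Summed counts (TMM, filterByExpr) were tested with edgeR's quasi-likelihood test with the plate as a term, without the genes of the definition, with Benjamini-Hochberg adjustment and a threshold of 0.05. The high-score and other wells compared share a plate, which is the source of the pairing. On simulated counts of 13846 genes, this test recovered 19% of genes changed by a log2 of 1 and 46% of those changed by 2, and called 5 unchanged genes. Wells of a plate were not used as replicates. The p values measure how the difference between high-score and other wells varied from plate to plate, over all genotypes. The mice behind a plate are not given, so this variation may be technical.

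Alternatives were other shares of cells, limits, scores and scalings, cells of 1 sex signal, DESeq2, RLE factors, no filter, no block, plates without Cre, and each plate left out. Leaving out cells with 20 UMIs of other cell types was added after the data were seen. Analyses used R 4.3.3 with edgeR 4.0.16 and DESeq2 1.42.0, and Python 3.11.15 with scanpy 1.11.5, pandas 2.3.3, matplotlib 3.10.9, scipy 1.17.1 and numpy 2.4.6.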

Additional observations from a re-analysis of the deposited data

Results flagged for a closer look

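*Cald1* had a ratio of Ang2 Ab to IgG of 2.21 in the collecting vessel LECs and 0.867 in the other LECs, so the direction differed between the groups of cells. The difference was not tested, with 1 library per antibody, and the ratio in members was 1.46 without the cells that held 20 UMIs of other cell types. In the upper member range *Cald1* was at 242 (IgG) and 277 CPM (Ang2 Ab), with overlapping intervals.

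On the plates, 3 named genes had opposite directions in both plates with and both plates without Cre of 1 pair of genotypes each, and not in the other pair. *Bmp4* had a mean log2 fold change in high-score wells of −1.63 in Tie1 Tie2 iDLEC and 2.44 in Tie1 Tie2 fl/fl plates, but 2.69 and 2.16 in the Tie1 iDLEC plates, as in their controls (2.99 and 2.05). *Nrp2* had a mean of 0.52 in Tie1 iDLEC and −0.18 in Tie1 fl/fl plates, but −0.75 and −0.45 in the Tie1 Tie2 iDLEC plates. *Itga9*, which encodes integrin α9, had 0.32 and −0.68, but −0.93 and −1.20 in the Tie1 Tie2 iDLEC plates. These differences were not tested, and the score at the 15% limit was lower in the plates with Cre, so the wells compared were not alike. In high-score wells of the Tie1 Tie2 iDLEC plates the mural genes *Acta2* (245 and 50.25 CPM) and *Des* (100.9 and 33.0 CPM) were higher. The other gated wells had 0.984 and 6.87 CPM of *Acta2* and 0.0252 and 0.152 CPM of *Des*, while the mural gene *Kcnj8* was lower in the high-score wells. No mural gene passed over the 8 plates, and the part of mural transcripts was not tested.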

How the results depend on the processing

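The lower share of members with Ang2 Ab kept its direction in the 11 alternatives run on it, with a ratio of shares from 0.328 to 0.454, while taking the highest 15% within each library gives no ratio. All 11 used the same kind of score with a pooled threshold, so they cannot separate fewer cells of the type from lower scores in the same cells. The counts of genes past 2-fold depended more on the settings, and the cause was not tested where not named. Genes higher with Ang2 Ab in members (43) numbered 27 with a mitochondrial limit of 5%, 27 with the score without *Plvap* and *Mmrn2*, 22 in cells with *Xist* UMIs alone and 123 with at least 50 UMIs per gene, and genes lower (87) numbered 260 with at least 50 UMIs. Without a minimum of UMIs, which adds genes near 0, 1528 were higher and 3816 lower with Ang2 Ab in members and 783 and 966 of the same genes in the other LECs, and 379 were higher and 2211 lower in members than in other LECs. In cells with Y-linked UMIs alone, 243 genes were lower in members (417 in all cells). In the other LECs, genes higher with Ang2 Ab (22) numbered 34 with the highest 20% of scores, 12 at the 5% limit, 14 and 10 in cells with Y-linked or *Xist* UMIs alone and 38 with at least 50 UMIs, and genes lower (45) numbered 24 in cells with Y-linked UMIs alone. Of 944 ratios of named genes under the alternatives, 800 moved by less than the spread allowed and 141 by more. In all, 54 of the 944, of 24 of 59 genes, lay on the other side of 1 from the reported ratio, of which 3 were of ratios past 2-fold, *Cald1* with a mitochondrial limit of 5% (0.966), *Ackr4* in cells with Y-linked UMIs alone (1.56) and *Fmo2* in cells with *Xist* UMIs alone (0.904).

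On the plates, 118 genes rose and 100 fell with the plate as a block that pairs the wells, and 22 and 46 without it. DESeq2 called 481 and 1281, no filter on low counts 70 and 177, and the 4 plates without Cre 50 and 12, with fewer samples. The score without *Plvap* and *Mmrn2* gave 76 that rose, and the highest 10% of wells 192 that fell. Leaving out 1 plate gave 52 to 132 that rose and 34 to 115 that fell, with the counts moved by over 1.5 times for each plate other than those of Tie1 Tie2 iDLEC. Of 574 log2 fold changes of named genes, 105 lost and 21 gained the call, and 17 of 4 genes that had not passed changed direction. The 37 Ang2 Ab members set the precision of every comparison with IgG members.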
